A study of Mus musculus with 12 samples.

Results

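The genes described here are 10 regulators of the G1 phase of the cell cycle, taken by gene symbol from tables that list 23366 symbols. They are the D-type cyclin genes Ccnd1, Ccnd2 and Ccnd3, the E-type cyclin genes Ccne1 and Ccne2, the kinase genes Cdk4 and Cdk6, and the inhibitor genes Cdkn1b, Cdkn2c and Cdkn2d. All 10 were listed, and all 10 passed the filter on low values in every comparison.

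Total RNA of Beko cells, a mouse pre-T cell line, was sequenced after removal of ribosomal RNA. The 12 libraries form 3 experiments with 2 treated and 2 control libraries each. The first experiment compared 24 h of DAPT at 10 µg/ml with DMSO. DAPT blocks γ-secretase, the protease that releases the active part of Notch receptors. The second compared 24 h of apicidin, an inhibitor of histone deacetylases, at 0.01 µg/ml with its own DMSO controls. In the third, cells were infected with plasmids for a short hairpin RNA against Hdac3 (shHdac3; 1 hairpin, named Sh1 in the labels) or a scrambled hairpin, and cells were taken 96 h after puromycin. All cells are of 1 line, whose genotype the labels do not state. The study asked what Notch inhibition does to gene expression and what loss of HDAC3, a histone deacetylase, does to the genes that respond.

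D-type cyclins bind CDK4 or CDK6, and the active kinase phosphorylates the retinoblastoma protein and its relatives, which frees E2F transcription factors. E-type cyclins then activate CDK2 and drive entry into S phase. The INK4 inhibitors, which include the products of Cdkn2c and Cdkn2d, bind CDK4 and CDK6, while the product of Cdkn1b, KIP1, binds cyclin-CDK complexes and blocks CDK2. In mouse thymocytes, cyclin D3 is needed for the burst of proliferation that follows pre-T cell receptor signalling.

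Levels below are normalized reads, meaning a library's whole reads over its size factor. The 3 experiments were normalized apart, and no level is set against one of another experiment. Means carry the SD of the 2 libraries of a group, and log2 fold changes, treated over control, the SE of the limma fit on log2(level + 1). A gene passed where its p-value, adjusted over all genes tested by the Benjamini-Hochberg method, was under 0.05.

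The libraries held 21766984 to 42815304 reads in genes. Hdac3 stood at 774 and 819 after knockdown, against 2012 and 1930 with the scrambled hairpin (log2 fold change -1.31 ± 0.05), in the direction of the labels. All 9 pre-T cell markers examined were present in all libraries. Their summed level was 102097 and 103928 with DAPT against 132687 and 135827 with DMSO, 55979 and 56109 with apicidin against 83165 and 83882 with DMSO, and 65425 and 66603 after Hdac3 knockdown against 88909.8 and 89132 in scrambled controls. Rag1 gave the largest part of this sum, with a mean of 42119 with DAPT against 61532 with DMSO, 20385 with apicidin against 38609 with DMSO, and 24164 with shHdac3 against 39097 with the scrambled hairpin. Not all of the markers were lower: Thy1 averaged 20926 with DAPT against 15967 with DMSO and 14094 with shHdac3 against 13209 with the scrambled hairpin, and Il2ra averaged 362 with shHdac3 against 349 with the scrambled hairpin. The 3 erythroid markers and the B cell markers Ms4a1 and Pax5 were at 0 in all 12 libraries. The 4 myeloid markers summed to 577 to 662 with DAPT against 359 to 373 with DMSO, to 831 to 885 with apicidin against 606 to 620.4 with DMSO, and to 418 to 445 with shHdac3 against 398 to 433 with the scrambled hairpin. Most of that sum was Itgam, while Lyz2 and Csf1r did not exceed 9.19 in any library. The 3 fibroblast markers summed to 79.1 to 82.3 with DAPT against 30.3 to 35.9 with DMSO, to 42.7 to 49.2 with apicidin against 22.0 to 27.3 with DMSO, and to 36.0 to 40.7 with shHdac3 against 31.6 to 46.3 with the scrambled hairpin, and the fibroblast marker Dcn was at 0 in 11 of the 12 libraries. The part of these markers in the results below was not tested. In bulk RNA, fewer cells of a type and less RNA per cell cannot be told apart.

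All 10 genes passed with DAPT, 6 higher and 4 lower, where 43.2% of all 12840 genes tested passed (20.1% higher and 23.1% lower). The count of lower genes rested on the DAPT libraries: it was 2 without DAPT replicate 1, where 5 were higher, and 1 without DAPT replicate 2, where 6 were higher. DESeq2 and the authors' deposited table each gave 5 higher and 3 lower. The direction differed by role: the 3 inhibitor genes rose and both kinase genes fell, while the cyclins divided. With apicidin 9 of the 10 passed, 5 higher and 4 lower, against 38.1% of 12463 genes (18.2% higher and 19.9% lower). With shHdac3 5 passed, 1 higher and 4 lower, against 41.9% of 12482 genes (22.5% higher and 19.4% lower), a share of the members near that of all genes. Which direction held more of the calls over all genes depended on the scaling: with DAPT 46.6% of calls were higher, or 56.5% with upper-quartile factors, and with shHdac3 53.8% were higher, or 43.5% with upper-quartile factors. The size of the changes was moderate: the median absolute log2 change of the 10 genes was 0.32 with DAPT, 0.31 with apicidin and 0.13 with shHdac3, beside 0.17 in each experiment over all genes tested. No member changed by as much as 2-fold, the largest change being 1.79-fold. Treated and control libraries did not overlap for 10 of the 10 genes with DAPT (69.9% of all genes tested), 9 with apicidin (69.0%) and 10 with shHdac3 (69.2%), so a lack of overlap was common.

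**Figure D1:**
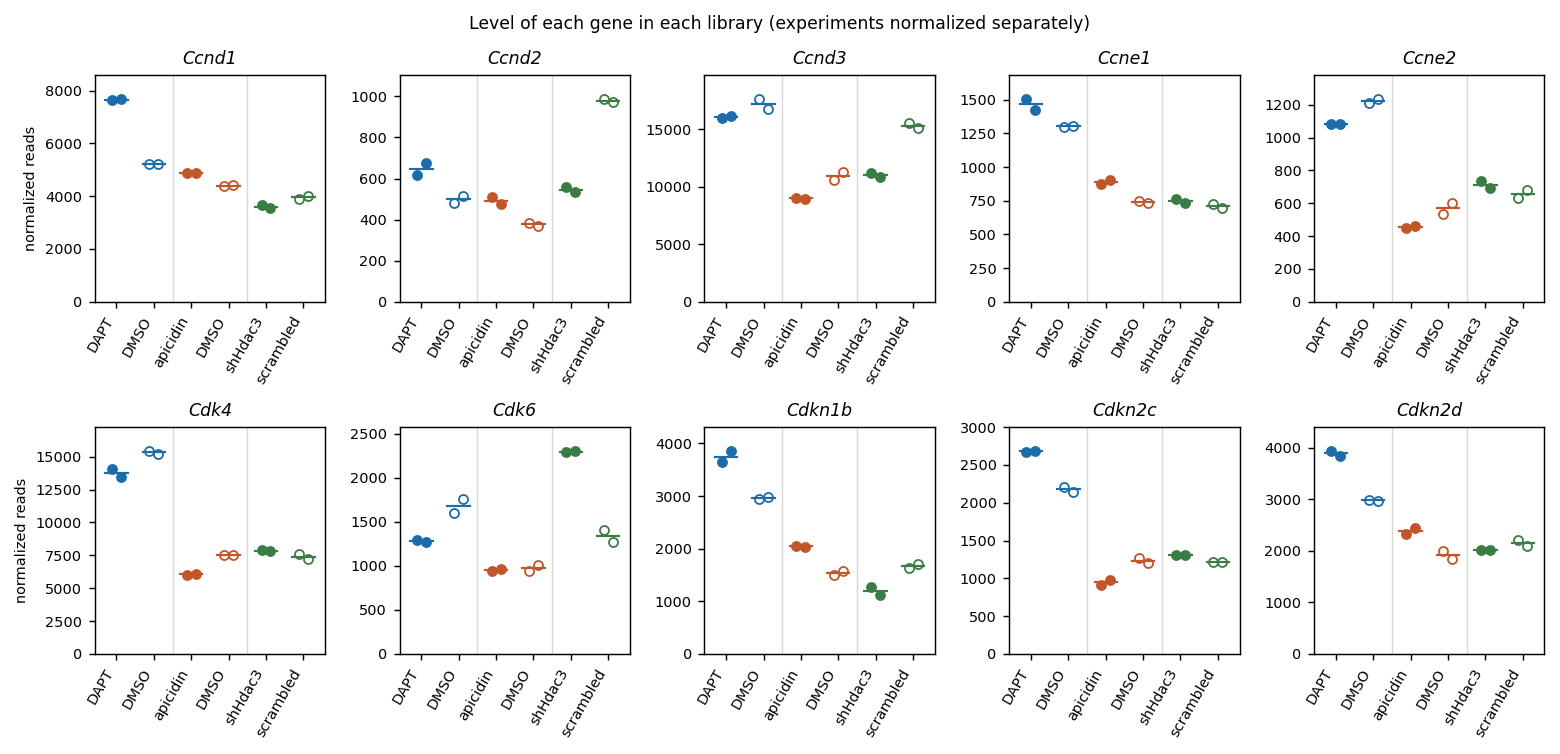
Normalized reads (y axis, from 0) of each gene in the 12 libraries; filled points are treated libraries, open points are controls, lines are group means, and the experiments were normalized separately. Ccnd2 and Cdk6 had the largest fold changes between shHdac3 and scrambled libraries, at 557 and 535 against 988 and 971 for Ccnd2 and 2292 and 2304 against 1408 and 1277 for Cdk6.

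Per kilobase of exon (union of the gene's exons in GENCODE M21), Cdk4 was the most abundant of the 10 in the DMSO libraries of the DAPT experiment, with a mean level of 4715 ± 42.7 per kb. Ccnd3 (1962 ± 71.0 per kb) and Cdkn2d (1893 ± 10.0 per kb) followed at levels close to each other. Ccnd1 (1108 ± 1.23 per kb), Cdkn2c (811 ± 17.6 per kb) and Cdkn1b (651 ± 5.52 per kb) lay in the middle, above Ccne1 (489 ± 2.96 per kb) and Ccne2 (349.8 ± 5.65 per kb). Cdk6 (120.2 ± 8.18 per kb) and Ccnd2 (52.9 ± 2.39 per kb) were lowest. The order was the same in the DMSO libraries of the apicidin experiment, where Ccnd3 (1204 and 1288 per kb) and Cdkn2d (1175 and 1263 per kb) overlapped. In the scrambled libraries the order changed at its low end only, with Ccnd2 (104 ± 1.31 per kb) above Cdk6 (95.9 ± 6.61 per kb). The order depends on the exon unions, which were 8775 bases for Ccnd3, 13989 for Cdk6 and 1574 for Cdkn2d. A union of all annotated exons can exceed the length of the transcripts present, which was not measured. The SD covers the spread of the libraries only. The INK4 genes that are not members, Cdkn2a and Cdkn2b, had at most 1 read per library and none in 11 of the 12 libraries.

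Among the D-type cyclins, Ccnd1 and Ccnd2 rose with DAPT and Ccnd3 fell slightly. Ccnd1, which encodes cyclin D1, was at 7643 and 7691 with DAPT against 5214 and 5222 with DMSO. Both DAPT libraries were above both DMSO libraries, a 1.47-fold rise (log2 fold change 0.56 ± 0.04, adjusted p = 2.6e-11). Ccnd2, which encodes cyclin D2, was at 617 and 674 with DAPT against 482 and 514 with DMSO, again without overlap (0.37 ± 0.07, adjusted p = 2.6e-04). Ccnd3, which encodes cyclin D3, was at 16011 and 16148 with DAPT against 17661 and 16779 with DMSO (-0.10 ± 0.04, adjusted p = 0.036). That small fall is the weakest call of the 10: it was lost without DAPT replicate 1 (adjusted p = 0.23), DAPT replicate 2 (0.16) or DMSO replicate 1 (0.17), and also with upper-quartile factors (0.20) or no filter (0.060).

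With apicidin too, Ccnd1 and Ccnd2 rose and Ccnd3 fell. Ccnd1 was at 4896 and 4864 with apicidin against 4377 and 4432 with DMSO (0.15 ± 0.04, adjusted p = 0.0076); leaving out apicidin replicate 1 ended this call (adjusted p = 0.066). Ccnd2 was at 511 and 474 with apicidin against 384 and 371 with DMSO, a 1.30-fold rise (0.38 ± 0.08, adjusted p = 9.7e-04). Ccnd3 was at 9048 and 8956 with apicidin against 10566 and 11300.5 with DMSO, 1.21-fold lower (-0.28 ± 0.04, adjusted p = 9.7e-05). None of the 3 genes had overlapping groups.

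After Hdac3 knockdown all 3 D-type cyclin genes fell. The largest fall was in Ccnd2, with 557 and 535 in shHdac3 libraries against 988 and 971 in scrambled libraries, or 1.79-fold lower (-0.84 ± 0.07, adjusted p = 4.9e-15). Ccnd3 was at 11229 and 10869.7 in shHdac3 cells against 15558 and 15123 in scrambled controls, 1.39-fold lower (-0.47 ± 0.05, adjusted p = 1.1e-11). Ccnd1 was at 3663 and 3549 in shHdac3 cells against 3891 and 4024 in scrambled controls (-0.13 ± 0.05, adjusted p = 0.014). This call ended when shHdac3 replicate 2 (adjusted p = 0.097) or scrambled replicate 2 (0.12) was left out, and with DESeq2 (0.088).

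The direction of the Ccnd2 change thus differed between the experiments. Hairpin cells were taken 96 h after puromycin, and drug-treated cells at 24 h. In every difference between responses, treatment cannot be told apart from experiment, nor, against shHdac3, from time and delivery. The DAPT response of Ccnd2 exceeded its shHdac3 response by 1.21 ± 0.10 log2 units (SE, adjusted p = 9.0e-10). Its apicidin response exceeded the shHdac3 response by 1.23 ± 0.10 (adjusted p = 2.2e-09). The DAPT and apicidin responses of Ccnd2 differed by -0.02 (95% interval -0.23 to 0.19, adjusted p = 0.90). For Ccnd1, the DAPT response exceeded the apicidin response by 0.40 (0.29 to 0.51, adjusted p = 3.4e-06) and the shHdac3 response by 0.68 (0.57 to 0.79, adjusted p = 3.4e-10). For Ccnd3, the fall with shHdac3 was deeper than with DAPT by 0.37 (0.25 to 0.49, adjusted p = 1.5e-05) and deeper than with apicidin by 0.20 (0.08 to 0.32, adjusted p = 0.010). The difference from apicidin did not pass without DMSO replicate 1 of that experiment (0.15, adjusted p = 0.060).

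Shares of reads within a library do not depend on the size factor. Ccnd3 made up 66.0% and 65.9% of D-type cyclin reads with DAPT against 75.6% and 74.5% with DMSO, while Ccnd1 made up 31.5% and 31.4% with DAPT against 22.3% and 23.2% with DMSO. With apicidin the Ccnd3 share was 62.6% and 62.7% against 68.9% and 70.2% with DMSO, and the Ccnd1 share was 33.9% and 34.0% against 28.6% and 27.5%. With shHdac3 the Ccnd3 share was 72.7% in both libraries against 76.1% and 75.2% with the scrambled hairpin, and the Ccnd1 share was 23.7% in both against 19.0% and 20.0%. The mix therefore held less Ccnd3 and more Ccnd1 in the treated libraries of all 3 experiments, without overlap. Ccnd2 gave the fewest reads everywhere, at 3.61% and 3.58% in shHdac3 cells against 4.83% and 4.82% in scrambled controls, and at 2.06% to 3.53% in the libraries of the drug experiments. Exact 95% binomial (Clopper-Pearson) intervals had half-widths of at most 0.829 percentage points and cover counting error only; the shares were not tested.

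**Figure D2:**
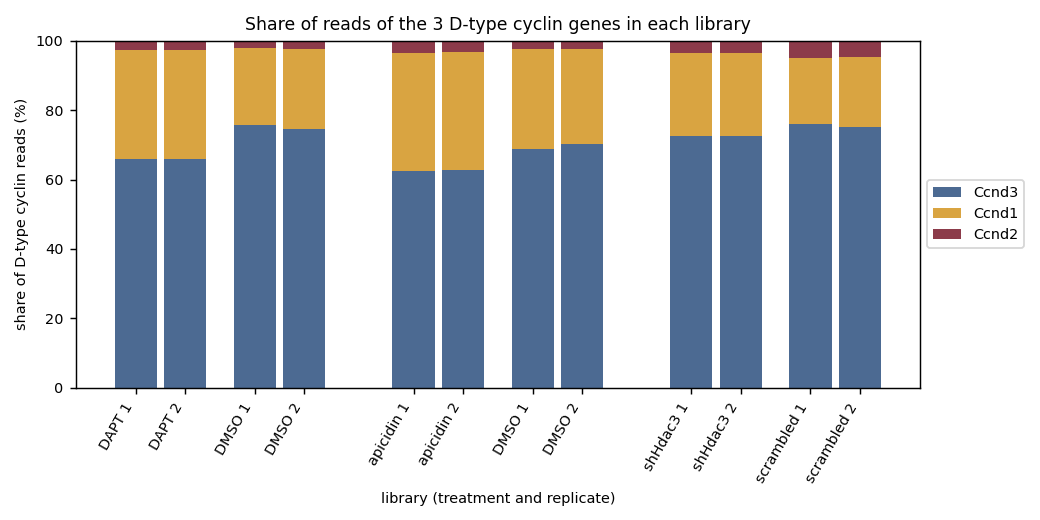
Share of D-type cyclin reads (y axis, percent) that came from Ccnd3, Ccnd1 and Ccnd2 in each of the 12 libraries, treated pairs left of their controls. The Ccnd3 share was 65.9% to 66.0% with DAPT against 74.5% to 75.6% with DMSO.

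The 2 E-type cyclin genes moved in opposite directions with both drugs. Ccne1, which encodes cyclin E1, was at 1507 and 1424 with DAPT against 1297 and 1308 with DMSO (0.17 ± 0.05, adjusted p = 0.010). Ccne2, which encodes cyclin E2, was at 1082 in both DAPT libraries against 1209 and 1236 with DMSO (-0.18 ± 0.05, adjusted p = 0.010). Neither pair of groups overlapped, but neither gene passed in the authors' deposited table (adjusted p = 0.089 for Ccne1 and 0.099 for Ccne2). The Ccne1 call was also lost without DAPT replicate 1 (adjusted p = 0.18), and the Ccne2 call without DAPT replicate 1 (0.063) or DAPT replicate 2 (0.062).

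Apicidin gave the same directions. Ccne1 was at 877 and 903 with apicidin against 749 and 731 with DMSO (0.27 ± 0.06, adjusted p = 0.0015). Ccne2 was at 451 and 460.2 with apicidin against 536 and 601 with DMSO (-0.32 ± 0.08, adjusted p = 0.0031). With shHdac3 neither gene passed: Ccne1 was at 760.1 and 735 against 728 and 699 with the scrambled hairpin (0.07 ± 0.07, adjusted p = 0.43), and Ccne2 at 734 and 693 against 629.8 and 682 (0.12 ± 0.07, adjusted p = 0.15). The Ccne2 response was lower with apicidin than with shHdac3 by 0.44 log2 units (difference -0.44, 95% interval -0.63 to -0.25, adjusted p = 7.7e-04), and lower with DAPT than with shHdac3 (-0.31, -0.50 to -0.12, adjusted p = 0.0091). The second of these did not pass without scrambled replicate 1 (-0.25, adjusted p = 0.056). Differences between the DAPT and apicidin responses did not pass for Ccne1 (-0.11, -0.27 to 0.05) or Ccne2 (0.13, -0.06 to 0.32).

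The kinase genes Cdk4 and Cdk6 both encode partners of the D-type cyclins, and they behaved differently. Cdk4 was at 14088 and 13467 with DAPT against 15416 and 15219.8 with DMSO (-0.15 ± 0.04, adjusted p = 0.0016), a call lost without DAPT replicate 2 (adjusted p = 0.098). With apicidin it was at 6014 and 6107 against 7491 and 7535 with DMSO, 1.24-fold lower (-0.31 ± 0.04, adjusted p = 1.1e-05). With shHdac3 it was at 7883 and 7833 against 7566 and 7198 with the scrambled hairpin and did not pass (0.09 ± 0.04, adjusted p = 0.10). Cdk4 thus fell with both drugs, and its apicidin response was below its shHdac3 response by 0.40 log2 units (difference -0.40, 95% interval -0.51 to -0.28, adjusted p = 5.8e-06).

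Cdk6 had the widest range of responses after Ccnd2. It was at 1292 and 1271 with DAPT against 1600.5 and 1762 with DMSO, 1.31-fold lower (-0.39 ± 0.05, adjusted p = 2.8e-06). With apicidin it was at 941 and 967 against 941 and 1014 with DMSO, groups that overlapped (-0.03 ± 0.06, adjusted p = 0.68). With shHdac3 it was at 2292 and 2304 against 1408 and 1277 with the scrambled hairpin, a 1.71-fold rise (0.78 ± 0.05, adjusted p = 2.2e-17). It was the only one of the 10 genes that passed with a rise after Hdac3 knockdown. The apicidin response lay below the shHdac3 response by 0.81 log2 units (difference -0.81, 95% interval -0.97 to -0.64, adjusted p = 5.6e-08), the DAPT response below it by 1.17 (-1.17, -1.34 to -1.01, adjusted p = 3.7e-11), and the DAPT response below the apicidin response by 0.37 (-0.37, -0.53 to -0.20, adjusted p = 9.4e-04). As a share of the reads of both kinase genes, Cdk6 made up 22.6% ± 0.143 with shHdac3 against 15.4% ± 0.438 with the scrambled hairpin, 8.51% ± 0.157 with DAPT against 9.89% ± 0.687 with DMSO, and 13.6% ± 0.0978 with apicidin against 11.5% ± 0.494 with DMSO.

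**Figure D3:**
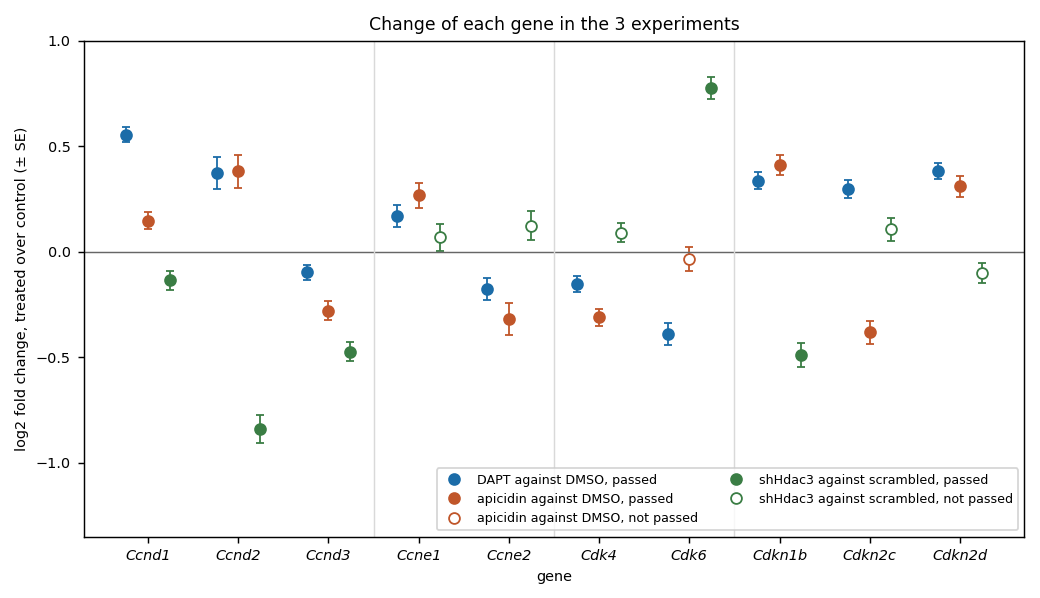
Log2 fold change, treated over control (y axis, ± SE of the limma fit, n = 2 libraries per group), of each gene in the 3 experiments; filled points passed at an adjusted p under 0.05. Ccnd2 and Cdkn1b were at 0.37 and 0.34 with DAPT and at -0.84 and -0.49 with shHdac3, and Cdk6 went the other way, at -0.39 and 0.78.

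Promoter sequences were read from RefSeq (GRCm38.p6) for 7 of the 10 genes, as the 250 bases before each annotated start, in 9 windows. No window was at hand for Ccnd1, Ccnd2 or Ccne2, so these genes were not searched. The letters searched, on both strands, were TGGGAA, the core of sites for RBPJ, the DNA-binding partner of Notch; TTTCCCGC and TTTGGCGC, for E2F; and CACGTG, the E-box bound by MYC and related factors. The 3 windows that held a match are shown with the matches in capitals, as a description of the letters and not of binding. Cdk4 (chr10:127063285-127063534, plus strand) held CACGTG 4 times, first bases 172, 118, 98 and 11 before the start, and TTCCCA once. Cdk6 (chr5:3343643-3343892, plus strand) held CACGTG once, 220 bases before the start, and Cdkn2d (chr9:21291210-21291459, minus strand) held TTCCCA once, 209 bases before it.
Cdk4: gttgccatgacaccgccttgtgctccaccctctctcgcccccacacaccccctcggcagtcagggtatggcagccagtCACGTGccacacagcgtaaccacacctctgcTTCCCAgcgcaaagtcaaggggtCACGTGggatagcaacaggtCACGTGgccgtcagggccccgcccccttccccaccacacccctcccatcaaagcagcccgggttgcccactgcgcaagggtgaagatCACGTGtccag
Cdk6: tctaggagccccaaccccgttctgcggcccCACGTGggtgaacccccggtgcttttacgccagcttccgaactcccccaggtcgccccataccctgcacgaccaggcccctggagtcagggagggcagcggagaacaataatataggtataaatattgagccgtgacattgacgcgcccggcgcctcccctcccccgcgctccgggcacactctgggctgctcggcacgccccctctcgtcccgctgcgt
Cdkn2d: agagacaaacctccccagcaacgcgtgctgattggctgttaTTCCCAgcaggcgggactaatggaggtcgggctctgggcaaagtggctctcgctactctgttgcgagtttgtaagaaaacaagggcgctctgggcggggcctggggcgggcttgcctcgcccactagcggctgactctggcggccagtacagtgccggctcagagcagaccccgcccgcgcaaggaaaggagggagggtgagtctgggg
Of all 32851 RefSeq windows of this length, 21.6% held the RBPJ letters, 1.30% the E2F letters and 6.02% CACGTG, and 7 windows held CACGTG 4 or more times.

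The inhibitor genes rose together with DAPT. Cdkn1b was at 3641 and 3853 with DAPT against 2947 and 2982 with DMSO, a 1.26-fold rise (0.34 ± 0.04, adjusted p = 6.8e-07). Cdkn2c, which encodes the INK4C inhibitor, was at 2675 and 2682 with DAPT against 2213 and 2146 with DMSO, a 1.23-fold rise (0.30 ± 0.04, adjusted p = 6.1e-06). Cdkn2d, which encodes the INK4D inhibitor, was at 3929.6 and 3841 with DAPT against 2991 and 2968 with DMSO, a 1.30-fold rise (0.38 ± 0.04, adjusted p = 5.6e-08). In each case both DAPT libraries lay above both DMSO libraries, and each call was kept without any 1 library.

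With apicidin 2 of the 3 rose and Cdkn2c fell. Cdkn1b was at 2050.4 and 2037 with apicidin against 1499 and 1579.7 with DMSO, a 1.33-fold rise (0.41 ± 0.05, adjusted p = 2.6e-06). Cdkn2d was at 2317 and 2438 with apicidin against 1988 and 1849.6 with DMSO, a 1.24-fold rise (0.31 ± 0.05, adjusted p = 7.6e-05). Cdkn2c was at 915 and 983 with apicidin against 1263 and 1209 with DMSO, 1.30-fold lower (-0.38 ± 0.06, adjusted p = 3.7e-05). Cdkn2c was the only one of the 10 genes that passed with DAPT and apicidin in opposite directions, and its DAPT response exceeded its apicidin response by 0.67 log2 units (95% interval 0.53 to 0.81, adjusted p = 5.9e-08).

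After Hdac3 knockdown Cdkn1b fell and the INK4 genes did not pass. Cdkn1b was at 1269 and 1111 in shHdac3 cells against 1625 and 1711 in scrambled controls, again without overlap (-0.49 ± 0.06, adjusted p = 7.5e-10). Cdkn2c was at 1304 and 1309 in shHdac3 cells against 1215 and 1213 in scrambled controls (0.11 ± 0.05, adjusted p = 0.11), and Cdkn2d at 2009 and 2012 against 2213 and 2098 (-0.10 ± 0.05, adjusted p = 0.095). Cdkn2d passed with upper-quartile factors (-0.14, adjusted p = 0.015). The Cdkn1b response exceeded that to shHdac3 by 0.82 log2 units with DAPT (95% interval 0.66 to 0.98, adjusted p = 6.0e-09) and by 0.90 with apicidin (0.75 to 1.06, adjusted p = 3.9e-09), while the 2 drug responses differed by -0.08 (-0.24 to 0.07, adjusted p = 0.44). For Cdkn2d the responses to DAPT and apicidin exceeded that to shHdac3 by 0.48 (0.34 to 0.61, adjusted p = 1.8e-06) and 0.41 (0.28 to 0.55, adjusted p = 2.7e-05).

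Over the 10 genes, responses to DAPT and apicidin differed in 5 (4 higher with DAPT, 1 lower), where 34.8% of 13042 genes tested differed (16.0% higher and 18.8% lower). The counts were 9 for DAPT against shHdac3 (6 higher and 3 lower, where 43.8% of all genes differed, 20.0% higher and 23.8% lower) and 10 for apicidin against shHdac3 (6 higher and 4 lower, where 33.4% differed, 15.1% higher and 18.3% lower). Among differences not given above, the Ccnd1 response to apicidin exceeded that to shHdac3 by 0.29 (adjusted p = 2.1e-04), the Cdk4 response to DAPT was below that to shHdac3 (-0.25, adjusted p = 5.6e-04), and the Cdkn2c response to apicidin was below that to shHdac3 (-0.48, adjusted p = 8.1e-06). Those of Cdkn2d between the drugs (0.06, 95% interval -0.07 to 0.19) and Ccne1 between DAPT and shHdac3 (0.09, -0.06 to 0.25) did not pass. Between the drugs, Ccnd3 (0.17, adjusted p = 0.025) did not pass in 6 of 8 fits that left out 1 library and Cdk4 (0.15, adjusted p = 0.040) in 7 of 8. Cdkn2c between DAPT and shHdac3 (0.18, adjusted p = 0.031) did not pass in 7 of 8, and Ccne1 between apicidin and shHdac3 (0.20, adjusted p = 0.045) in 7 of 8.

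**Figure D4:**
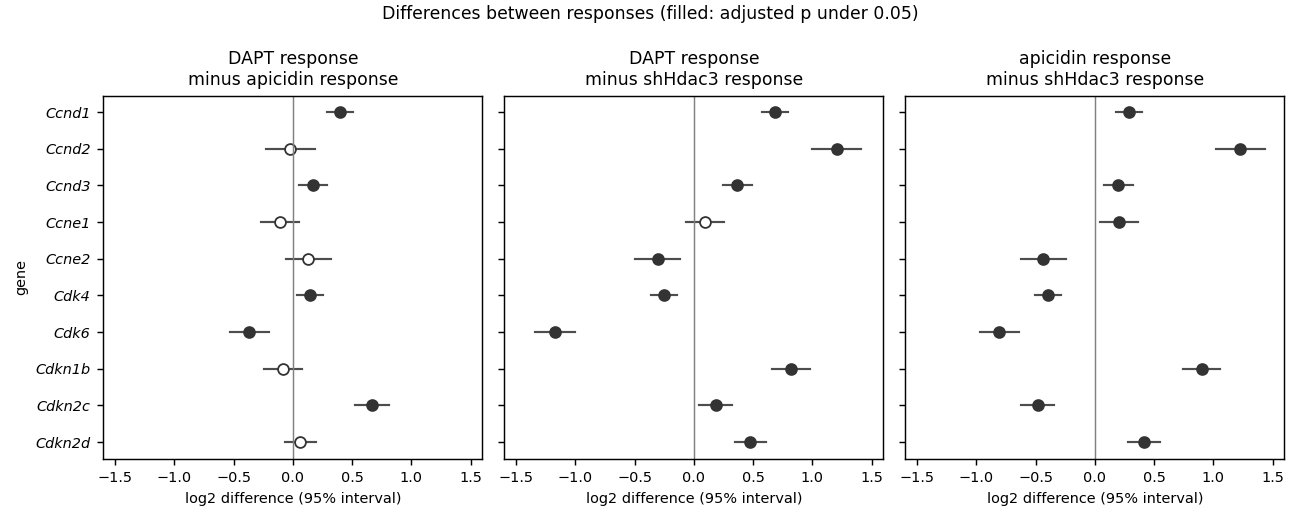
Difference between 2 responses on the log2 scale (x axis, point with 95% interval of the limma fit on 12 libraries) for each gene, with filled points where the adjusted p was under 0.05. Ccnd2 lies at -0.02 between the drugs and at 1.21 and 1.23 against shHdac3, and Cdk6 lies at -0.37, -1.17 and -0.81.

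Some reads could belong to genes on the opposite strand, since the strand setting of the read counter is not known from the labels. In GENCODE M21, exons of an opposite-strand gene covered 23.4% of the exonic bases of Ccnd1 (Lto1, listed in the tables as Oraov1), 19.7% of Cdk4 (Tspan31), 17.4% of Ccne2 (Ints8), 7.86% of Ccnd2, 4.11% of Ccnd3 (Bysl) and 2.63% of Cdk6. The other 4 genes had none. Oraov1 averaged 349 with DAPT and 280 with DMSO, where Ccnd1 averaged 7667 and 5218. The log2 changes of Oraov1 were 0.32 with DAPT, 0.07 with apicidin and -0.03 with shHdac3. Each was in the direction of Ccnd1, and the first passed. Those of Bysl were -0.23, -0.09 and 0.18, of which the DAPT (adjusted p = 8.9e-04) and shHdac3 (adjusted p = 0.0068) values passed, the first in the direction of the Ccnd3 call with DAPT. Those of Tspan31 were 0.14, 0.19 and -0.09, of which the DAPT and apicidin values passed, against the direction of Cdk4. Those of Ints8 were -0.05, 0.01 and 0.31, of which the shHdac3 value passed (adjusted p = 8.3e-06). The part of these neighbours in the values of the members was not tested. A processed pseudogene of Ccnd3, Ccnd3-ps, is also annotated.

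Other genes of G1/S control went both ways in each experiment. Of 30 listed, 28 were tested. With DAPT 8 rose and 9 fell (median log2 change -0.04), beside 20.1% and 23.1% of all genes tested (median 0.00140). Those with the largest changes were E2f5 (-0.65 ± 0.14) and E2f4 (-0.46 ± 0.04), members of the E2F family that act mainly in repression, which fell, and Cdkn1c (0.58 ± 0.09), a relative of Cdkn1b, and the pocket protein gene Rbl2 (0.43 ± 0.04), which rose.

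With apicidin 7 of the 28 rose and 11 fell (median -0.10), beside 18.2% and 19.9% of all genes tested (median 0.00158). Cdkn1c was at 51.4 and 40.9 with apicidin against 87.5 and 96.7 with DMSO (-0.99 ± 0.19, adjusted p = 6.5e-04), and Cdkn1a, which encodes the inhibitor CIP1, at 382 and 345 against 599.9 and 627 (-0.76 ± 0.08, adjusted p = 7.7e-07). The largest rise was in Skp1a (0.70 ± 0.05), a subunit of the ubiquitin ligase that degrades KIP1, and E2f7 fell (-0.69 ± 0.13). The inhibitor genes thus divided with apicidin, Cdkn1b and Cdkn2d being higher and Cdkn1a, Cdkn1c and Cdkn2c lower.

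With shHdac3 9 of the 28 rose and 6 fell (median 0.06), beside 22.5% and 19.4% of all genes tested (median 1.84e-04). Cdkn1a was at 282 and 268 in shHdac3 cells against 773 and 782 in scrambled controls (-1.50 ± 0.08, adjusted p = 3.9e-21), a larger fall than that of any member. E2f7 fell as well (-1.12 ± 0.15). Cdc25a, a phosphatase that activates CDK2 (0.43 ± 0.05), and Skp2, which recognises KIP1 for degradation (0.37 ± 0.05), rose.

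Cyclin, kinase and related genes of S, G2 and M phase were set beside the G1 genes. The list includes Cdc25b, Cdc25c and Cks2, which encode neither cyclins nor kinases. All 14 were tested, and the shares and medians of all genes given above are the background to their counts: 20.1% higher and 23.1% lower with DAPT, 18.2% and 19.9% with apicidin, and 22.5% and 19.4% with shHdac3, with medians of 0.00140, 0.00158 and 1.84e-04. With DAPT 1 rose and 4 fell (median -0.05), with Aurkb (-0.19 ± 0.04) and Plk1 (-0.12 ± 0.04), mitotic kinase genes, and Cks2 (-0.11 ± 0.04) falling and the mitotic cyclin gene Ccnb2 (0.12 ± 0.04) rising. With apicidin 0 rose and 9 fell (median -0.20), led by Ccnb2 (-0.35 ± 0.05), Cdc25b (-0.32 ± 0.04), Cks2 (-0.32 ± 0.05) and Cdk1 (-0.23 ± 0.04). With shHdac3 9 rose and 0 fell (median 0.16), led by Cdc25b (0.39 ± 0.05), Ccnf (0.24 ± 0.05), Aurka (0.23 ± 0.05) and Wee1 (0.21 ± 0.05). These counts are from limma. At an unadjusted p under 0.05, 1 rose and 11 fell with apicidin, and 9 rose and 0 fell with shHdac3. With edgeR 1 rose and 10 fell with apicidin and 9 rose and 0 fell with shHdac3, and with DESeq2 0 rose and 8 fell with apicidin and 6 rose and 0 fell with shHdac3. For the G1/S list DESeq2 gave 4 higher and 4 lower with apicidin, and 6 higher and 2 lower with shHdac3.

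**Figure D5:**
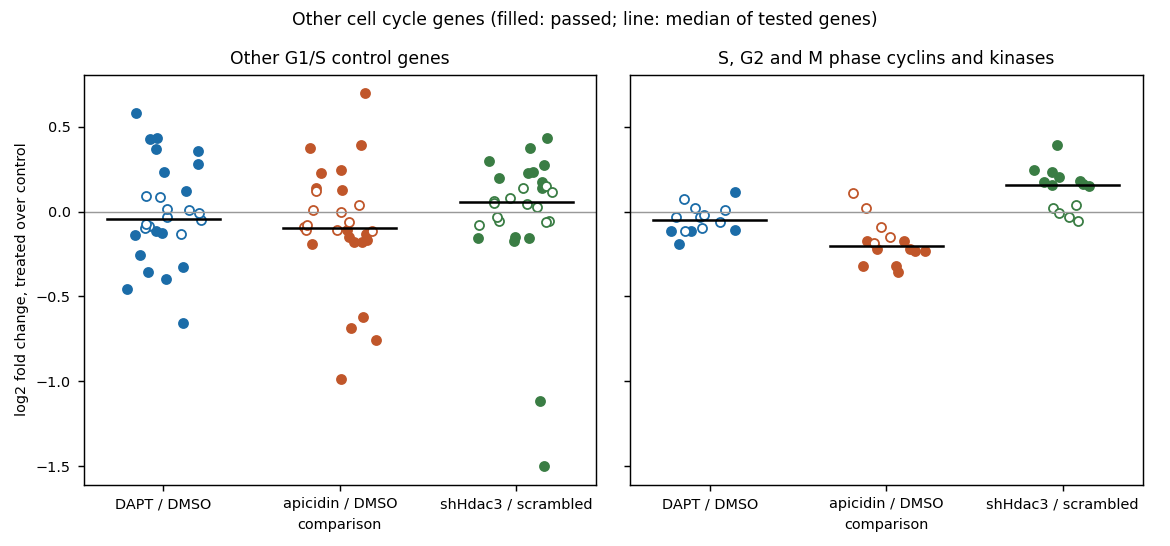
Log2 fold change, treated over control (y axis), of each tested gene of G1/S control outside the 10 members (28 genes) and of S, G2 and M phase (14 genes) in the 3 comparisons; filled points passed and lines are medians. The S, G2 and M phase genes have medians of -0.05 with DAPT, -0.20 with apicidin and 0.16 with shHdac3.

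The genes most like a member were found by the root mean square difference of log2 changes over the 6 treated libraries, each taken from the mean of its own controls. The search covered 9713 other genes with a mean level of 50 or more in each experiment and a curated symbol. Genes with provisional symbols, such as Gm numbers or names ending in Rik, and with Mir or Snor symbols were left out. For Ccnd1 they were Med13l (root mean square difference 0.035), Arhgap25 (0.046) and St8sia1 (0.048), and for Ccnd2 Ifnz (0.040), Kcnab3 (0.086) and Nipal3 (0.087). For Ccnd3 they included Nudt14 (0.037) and Rsu1 (0.041), and for Cdkn1b they were Sertad3 (0.062), Ddx58 (0.078) and Nagk (0.081). Ifnz, for example, changed by 0.33 with DAPT, 0.39 with apicidin and -0.86 with shHdac3. These values are descriptions, without a test.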

How the data were processed

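The authors deposited 1 table per experiment. Per the file headers each holds a normalized signal per gene and library, a mean signal, the authors' log2 fold change, a standard error and a test statistic (both scores), and p-values, raw and adjusted. The deposited signal is a read number over the library's size factor: 100% of values were whole multiples of the value of 1 read. The tolerance was relative, at 1e-06 of the read number, so it was wider for genes with more reads. The submitters' processing notes name FastQC, Bowtie2, TopHat, DESeq2 and the mm9 build, without roles; no source used here gives the read counter or annotation.

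The main test was limma 3.58.1 (R 4.3.3) using its trend option on log2(signal + 1), fitted to the 4 libraries of an experiment, for genes that reached a signal of 10 in 2 or more libraries, two-sided. Differences between responses were fitted on all 12 libraries after common size factors (median of ratios) on recovered reads. The pseudocount of 1 shrinks mainly the changes of low genes. With edgeR 4.0.16 on the recovered reads, 5570 genes were called with DAPT, 4765 with apicidin and 5314 with shHdac3. DESeq2 1.42.0, other factors, filters, pseudocounts, left-out libraries and the replicate block were also run. The labels do not say that replicates are separate cultures, so the spread behind each p-value is that of these libraries and may be technical. In simulated reads, genes changed 1.25-fold were called in 60% (DAPT, 12800 genes tested), 56% (apicidin, 12468) and 64% (shHdac3, 12463) of cases. Genes changed 1.5-fold were called in 90%, 94% and 98%. The simulation changed far fewer genes than passed in the data, all well above the filter, and assumed a fixed dispersion. These rates are therefore not the sensitivity of the tests on the data.

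Members, lists and the naming rule (all members, up to 4 passing genes per list, the 3 most alike genes for 4 members) were chosen with earlier results of these data known. One gene that the rule names is not reported here.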

Additional observations from a re-analysis of the deposited data

How the results depend on the processing

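Of 840 values of single members under alternatives, 784 kept their direction and their side of the threshold, 49 no longer passed, 1 newly passed and 6 changed sign. The sign changes were all in values that did not pass: Cdk6 with apicidin without DMSO replicate 2 (0.020, the lowest value without 1 library being -0.088), and Ccnd2 between DAPT and apicidin, which was 0.0049 with edgeR and between 0.0067 and 0.046 in 4 of the fits that left out a library (lowest of all such fits -0.087). Leaving out 1 library gave 1 to 4 members lower with DAPT and 2 to 3 members with a higher response to DAPT than to apicidin. DESeq2 called 2472 genes with apicidin and 2952 with shHdac3, while the count from the authors' deposited table was 2465 with apicidin and 2961 with shHdac3, against 4746 and 5228 with limma; higher genes with DAPT numbered 1650 with DESeq2 and 2584 with limma. Per kilobase, the Ccnd1 share of D-type cyclins changed by 10.6, 6.89 and 5.55 percentage points (DAPT, apicidin, shHdac3), that of Ccnd2 by 0.248, 0.667 and -1.08, and that of Ccnd3 by -10.9 with DAPT and -4.47 with shHdac3, in the directions given by reads. With apicidin the Ccnd3 share per kilobase was 48.5% against 56.1% with DMSO. Shares per kilobase differ from shares of reads only because the same reads are divided by exon lengths. The cause of the differences between tools and between fits was not tested. With the replicate number as a block, Ccne1 between apicidin and shHdac3 did not pass (0.20, adjusted p = 0.058), and no other member call changed; same-numbered libraries deviated together with correlations of 0.0187, 0.0388 and 0.011 (DAPT, apicidin, shHdac3), so the numbers were not taken to pair libraries. Groups of 2 libraries limit the precision of every value.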
